A study of Mus musculus with 8 samples.

Results

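The genes described here carry fatty acids through oxidation in liver: the receptor gene Ppara, its partner regulator Creb3l3, and genes of fatty acid activation, the carnitine shuttle, mitochondrial and peroxisomal β-oxidation, ω-oxidation and ketone formation. They were taken by name from a list of 29 genes, and a gene counted as measured where the array held a probe set annotated to that symbol alone; the probe set with the highest mean over the arrays was used. 26 of the 29 were measured, out of 22180 genes in all. Cyp4a10 appeared only on 2 probe sets shared with Cyp4a31 or Cyp4a32, Cyp4a32 only on 1 of these, and no probe set was listed for Acsl1, so no value is given for these 3 genes. All 26 measured genes passed the filter on dim genes.

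The RNA came from livers of C57BL/6 mice, labelled as having fatty liver disease without alcohol in all 8 samples. 4 samples belonged to animals treated with rilpivirine, an HIV reverse transcriptase inhibitor of the non-nucleoside class, and 4 to a control group. The labels' protocols name a normal diet and a diet with 60% fat for 3 months without assigning them to samples, and describe daily dosing by mouth, at doses equivalent to human ones. The sources used here give no age, sex, vehicle, fasting state or hour of collection, and no label says that each sample is a separate mouse, so the p-values measure the spread between samples, which may be technical. The question was which liver transcripts differ with rilpivirine.

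Long-chain fatty acids are bound in the hepatocyte by the liver fatty acid binding protein, activated to acyl-CoA and passed into mitochondria by the carnitine shuttle, where repeated rounds of β-oxidation yield acetyl-CoA that the liver can turn into ketone bodies. Very long and branched chains are first shortened in peroxisomes, and enzymes of the Cyp4a family oxidize the ω-end of the chain in the endoplasmic reticulum. PPARα, the product of Ppara, is a nuclear receptor that fatty acids activate in fasting; it binds DNA with RXR at a direct repeat of 2 half-sites and drives many of these genes.

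To show what such a site looks like in these genes, the half-site AGGTCA, any 1 base and AGGTCA again were searched together on both strands in the 250 bases before each annotated start, with up to 2 mismatches in its 12 fixed letters. RefSeq's promoter table (GRCm38.p6) held windows for 24 of the 29 genes. A match was found in 2 of them, Fabp1 and 1 of the starts of Creb3l3, and in 3.72% of the 27025 genes in that table. In the lines below, read 5′ to 3′ on the strand of the gene, capitals mark the half-sites; the Fabp1 match lies on the opposite strand and has 1 mismatch, and the Creb3l3 match has 2.
Fabp1 (chr6:71199804-71199832, + strand): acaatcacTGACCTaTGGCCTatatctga
Creb3l3 (chr10:81092780-81092808, - strand): ctgtaagtAGGGGAgAGGTCAcacagacc
The Fabp1 match begins 67 bases before the start and the Creb3l3 match 209 bases before it. A match is a description of letters, and a gene with no match in this window may hold a site elsewhere.

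Some arrays stood apart before any comparison. Rilpivirine replicate 2 was the array least like the others over all 41345 probe sets, with a mean correlation of 0.965 against 0.976 to 0.981 elsewhere. Its small nucleolar RNA probe sets were the highest, 0.49 log2 above the mean. Those of control replicate 1 were the lowest, at -0.60 log2 from the mean. Rilpivirine replicate 4 was the only array with clear signal for Ucp1 and Retn, genes of fat tissue. The mean over 10 defining hepatocyte markers, Alb and Ttr among them, was high on all 8 arrays. It was 11.23 to 11.44 log2 with rilpivirine and 11.34 to 11.47 in controls. Among the 10, Ass1 was dim, at 4.32 to 5.39 log2 over the 8 arrays.

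No gene of fatty acid oxidation passed the test between rilpivirine and control. In limma, 0 of the 26 had a Benjamini-Hochberg adjusted p under 0.05, and 0% of the 16635 genes tested did. At an unadjusted p under 0.05 there was 1 of the 26, Ppara, or 3.85% of them, against 5.21% of all genes tested; it was lower, as were 3.21% of all genes at that level. The 2 groups of arrays separated completely in 0 of the 26 genes, against 3.04% of all genes. The sign was negative in 19 of the 26, or 73.1%, against 56.9% of all genes, and positive in 7. Their median log2 difference was -0.09 against -0.03. Without rilpivirine replicate 2 the sign was negative in 16 of the 26, or 61.5%, against 53.2% of all genes, and the medians were -0.05 and -0.01. With the small nucleolar RNA level of each array in the model, 13 were negative and 13 positive, against 53.8% negative over all genes. The medians were then 0.002 and -0.01. Without rilpivirine replicate 4 the sign was negative in 20 of the 26, or 76.9%, against 58.2% of all genes. The medians were then -0.15 and -0.04.

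**Figure D1:**
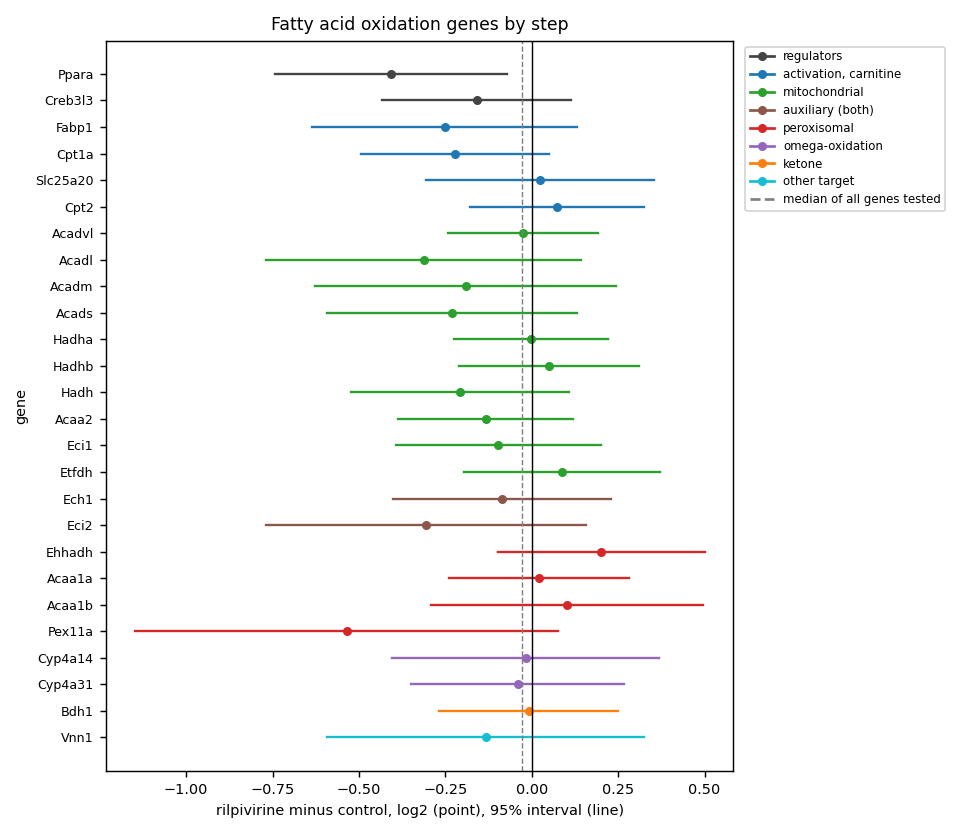
Difference between rilpivirine and control for each of the 26 measured genes (log2, horizontal axis; points are the fitted differences, lines their 95% intervals in limma, colours the steps; n = 4 arrays per group). The interval excludes 0 only for Ppara, before any adjustment for the number of genes, and the widest interval is that of Pex11a.

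Of the regulators, Ppara measured 8.24, 7.61, 7.84 and 7.98 log2 in rilpivirine replicates 1 to 4 and 8.14, 8.56, 8.34 and 8.26 in control replicates 1 to 4. Rilpivirine replicates 2, 3 and 4 lay under every control, whereas replicate 1 lay above control replicate 1, so the groups overlapped. The mean was 7.92 ± 0.26 (SD, n = 4) against 8.33 ± 0.18 (SD, n = 4), a 1.33-fold lower level, with a log2 difference of -0.41 ± 0.15 (SE) and an adjusted p of 0.890 in limma. Without rilpivirine replicate 2 the difference was -0.31 and the unadjusted p of limma 0.0572, and without control replicate 2 they were -0.33 and 0.0672. Creb3l3, which encodes CREBH, a membrane-bound transcription factor of hepatocytes that acts with PPARα in fasting, had a mean of 9.14 ± 0.17 against 9.30 ± 0.12 log2 (SD, n = 4 per group), a log2 difference of -0.16 (95% interval -0.43 to 0.11), or -0.08 without rilpivirine replicate 2.

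Fatty acid binding, activation and the carnitine shuttle held 2 higher and 2 lower genes. Cpt1a encodes the liver form of carnitine palmitoyltransferase 1, which malonyl-CoA inhibits and which sets the rate at which long chains enter mitochondria. It measured 10.39, 10.01, 10.16 and 10.33 log2 with rilpivirine and 10.35, 10.54, 10.54 and 10.36 in controls. The highest rilpivirine array lay between the control arrays, and the log2 difference was -0.22 ± 0.12 (SE; unadjusted p = 0.0990, adjusted p = 0.890 in limma). Fabp1, the liver fatty acid binding protein, ranged from 11.06 to 11.88 with rilpivirine and from 11.57 to 11.92 in controls, with a log2 difference of -0.25 ± 0.17 (SE). It was -0.10 without rilpivirine replicate 2, the lowest array, and 0.02 without rilpivirine replicates 1 and 2 together. The later steps of the shuttle, the carnitine-acylcarnitine carrier Slc25a20 and the inner membrane transferase Cpt2, had log2 differences of 0.02 ± 0.15 and 0.07 ± 0.11 (SE). The median of the 4 genes was -0.10, and -0.02 without rilpivirine replicate 2; Slc25a20 was then at 0.13, and at -0.04 without rilpivirine replicate 4.

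The 10 genes of mitochondrial β-oxidation had a median log2 difference of -0.11, negative in 8 and positive in 2. The median was -0.02 without rilpivirine replicate 2, negative in 6 and positive in 4. The acyl-CoA dehydrogenases start each round, each on chains of its own length. Acadvl, for very long chains, had the smallest SD of the 26 genes in both groups: its 4 rilpivirine arrays lay between 8.86 and 8.90 log2 and its 4 controls between 8.86 and 8.93. Acadl, for long chains, measured 9.35, 8.85, 9.48 and 9.77 with rilpivirine and 10.12, 9.41, 9.59 and 9.58 in controls. Its lowest value was in rilpivirine replicate 2 and its highest in control replicate 1, and the log2 difference was -0.31 ± 0.21 (SE), or -0.14 without rilpivirine replicate 2. Acadm, for medium chains, had a difference of -0.19 ± 0.20 (SE), with rilpivirine arrays from 9.76 to 10.66 and controls from 10.22 to 10.73. The 9.76 was rilpivirine replicate 2, without which the difference was -0.02.

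Acads, for short chains, spread more with rilpivirine (SD 0.35) than in controls (SD 0.04). It measured 8.52, 8.02, 7.70 and 8.28 log2 with rilpivirine and 8.35, 8.42, 8.33 and 8.35 in controls. Rilpivirine replicate 1 lay above all controls and the other 3 rilpivirine arrays below all of them. The log2 difference was -0.23 ± 0.16 (SE; unadjusted p = 0.187, adjusted p = 0.890 in limma). Without rilpivirine replicate 1 the difference was -0.36 and the unadjusted p of limma 0.0362, and without rilpivirine replicate 3 they were -0.09 and 0.547.

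The later mitochondrial enzymes lay between -0.21 and 0.09. Hadha encodes the α-subunit of the trifunctional protein, which carries the middle and last reactions for long chains. Its mean was 10.56 log2 in both groups, with a 95% interval of the difference from -0.22 to 0.22. Its partner subunit Hadhb was read by a dim probe set, at 3.46 to 3.86 with rilpivirine and 3.51 to 3.71 in controls, less far above the filter value of 2.72 than any other of the 26, with a difference of 0.05 ± 0.12 (SE). Hadh, the dehydrogenase for shorter hydroxyacyl chains, had a log2 difference of -0.21 ± 0.14 (SE), and Acaa2, the mitochondrial thiolase, -0.13 ± 0.11 (SE). Eci1, an isomerase needed for unsaturated chains, had a difference of -0.10 ± 0.13 (SE). Etfdh, which passes electrons from the acyl-CoA dehydrogenases to ubiquinone, had one of 0.09 ± 0.13 (SE); without rilpivirine replicates 1 and 2 together it was 0.28. The auxiliary enzymes Ech1 and Eci2, which handle double bonds and are found in both mitochondria and peroxisomes, were at -0.09 ± 0.14 and -0.31 ± 0.21 (SE). Without rilpivirine replicate 2, Hadh was at -0.09, Acaa2 at -0.08, Eci1 at 0.01, Etfdh at 0.15, Ech1 at 0.04 and Eci2 at -0.15.

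Of the 4 peroxisomal genes 3 were higher and 1 lower. Ehhadh, the bifunctional enzyme of peroxisomal β-oxidation and a common marker of PPARα activity, measured 9.89, 9.76, 9.94 and 10.31 log2 with rilpivirine and 9.85, 9.84, 9.64 and 9.77 in controls. 3 of the 4 rilpivirine arrays lay above every control, and rilpivirine replicate 2 lay among the controls. Its log2 difference of 0.20 ± 0.14 (SE; unadjusted p = 0.165, adjusted p = 0.890 in limma) was the highest of the 26 genes. The peroxisomal thiolases Acaa1a and Acaa1b had differences of 0.02 ± 0.12 and 0.10 ± 0.18 (SE). These were -0.06 and 0.22 without rilpivirine replicate 2, and 0.07 and -0.02 without rilpivirine replicate 4.

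Pex11a, which promotes the growth and division of peroxisomes, had the lowest difference of the 26. It measured 6.52, 5.93, 6.87 and 7.19 with rilpivirine and 7.70, 6.63, 7.28 and 7.04 in controls. Rilpivirine replicates 1 and 2 lay below all controls, while replicates 3 and 4 lay within their range. The log2 difference was -0.54 (95% interval -1.15 to 0.08; unadjusted p = 0.0806, adjusted p = 0.890 in limma), -0.30 with rilpivirine replicate 2 left out and -0.36 with control replicate 1 left out. With rilpivirine replicate 4 left out it was -0.72 (unadjusted p = 0.0220 in limma), and with control replicate 2 left out -0.71 (unadjusted p = 0.0294). The median of the 4 peroxisomal genes was 0.06, against -0.11 for the mitochondrial genes, and 0.08 against -0.02 without rilpivirine replicate 2; the difference between these steps was not tested.

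**Figure D2:**
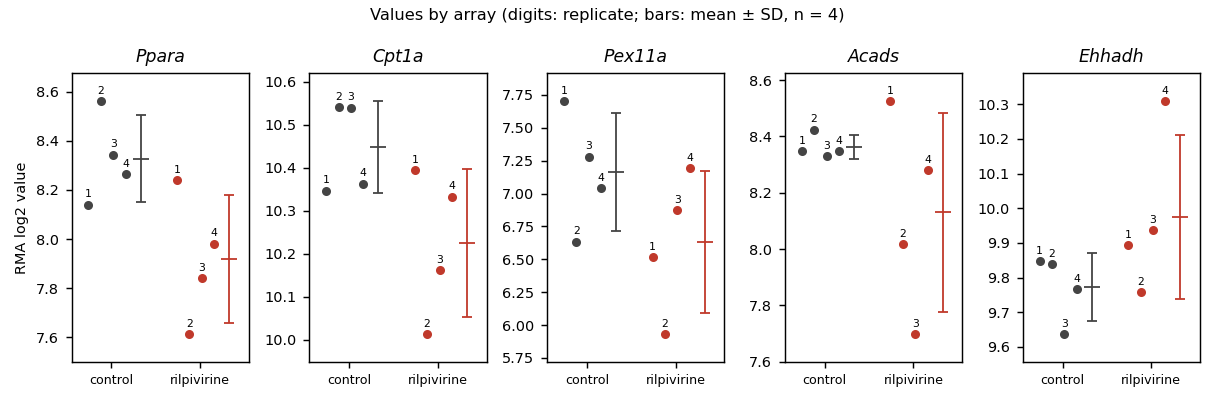
Values of Ppara, Cpt1a, Pex11a, Acads and Ehhadh on each array (vertical axes: RMA log2 value, a separate scale for each gene; points are arrays with their replicate number; bars are mean ± SD, n = 4). The groups overlap in each panel, the 4 Acads controls lie between 8.33 and 8.42, and rilpivirine replicate 2 is the lowest array in the panels of Ppara, Cpt1a and Pex11a.

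ω-Oxidation was represented by a pair of genes. Cyp4a14, one of the Cyp4a genes that PPARα agonists induce most, measured 10.15, 10.72, 10.88 and 10.89 log2 with rilpivirine and 10.65, 10.45, 10.76 and 10.85 in controls. Rilpivirine replicate 1 was the lowest array and the other 3 lay within or just above the controls, and the log2 difference was -0.02 (95% interval -0.40 to 0.37). Cyp4a31 had a difference of -0.04 (95% interval -0.35 to 0.27). These were -0.04 and -0.11 without rilpivirine replicate 2, and -0.10 and 0.02 without rilpivirine replicate 4. The Cyp4a genes are close copies, so probes may read more than 1 of them, and Cyp4a10 and Cyp4a32 could not be separated on this array.

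Ketone formation was represented by Bdh1, the mitochondrial enzyme that converts acetoacetate and β-hydroxybutyrate into each other. Its rilpivirine arrays lay between 7.80 and 8.09 log2 and its controls between 7.83 and 8.11, which overlapped almost fully, with a log2 difference of -0.01 (95% interval -0.27 to 0.25), which was 0.04 without rilpivirine replicate 2 and -0.06 without replicate 4. Vnn1, a pantetheinase whose gene PPARα drives, measured 7.52, 7.98, 7.72 and 7.93 with rilpivirine and 8.58, 7.68, 7.64 and 7.79 in controls. Control replicate 1 stood above the other 7 arrays, and the log2 difference was -0.13 ± 0.21 (SE). It was 0.09 without control replicate 1 and -0.20 without rilpivirine replicate 2.

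In 25 of the 26 genes the 95% interval lay within a 2-fold change in either direction, with Pex11a as the exception, and in 18 it lay within 1.5-fold. The 8 genes outside 1.5-fold were Ppara, Fabp1, Acadl, Acadm, Acads, Eci2, Pex11a and Vnn1. Having 4 arrays in each group limits this precision.

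Array by array, rilpivirine replicate 2 was the lowest of the 8 arrays in 18 of the 26 genes, or 69.2%, against 30.2% of all genes tested. Control replicate 1 was the highest in 8 of the 26, against 14.2% of all genes tested. The mean of the 26 genes, as a deviation from the mean of the 8 arrays, was -0.03, -0.27, -0.02 and 0.10 log2 in rilpivirine replicates 1 to 4 and 0.14, -0.04, 0.05 and 0.07 in controls. The mean of the hepatocyte markers was lowest on rilpivirine replicate 2 too, at 11.23 log2, but single markers differed. Ttr, Cps1, Ass1 and Tat were lowest on it, whereas Alb was highest on it, at 13.37. Apoa1, Cyp2e1, Hnf4a and Serpina1c were lowest on rilpivirine replicate 4, and Apob on control replicate 4. The part of the RNA of rilpivirine replicate 2 in the values was not tested. Without that array 0 of the 26 genes had an unadjusted p under 0.05 in limma. The spread was larger with rilpivirine than in controls in 21 of the 26 genes, as in 69.8% of all genes tested.

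**Figure D3:**
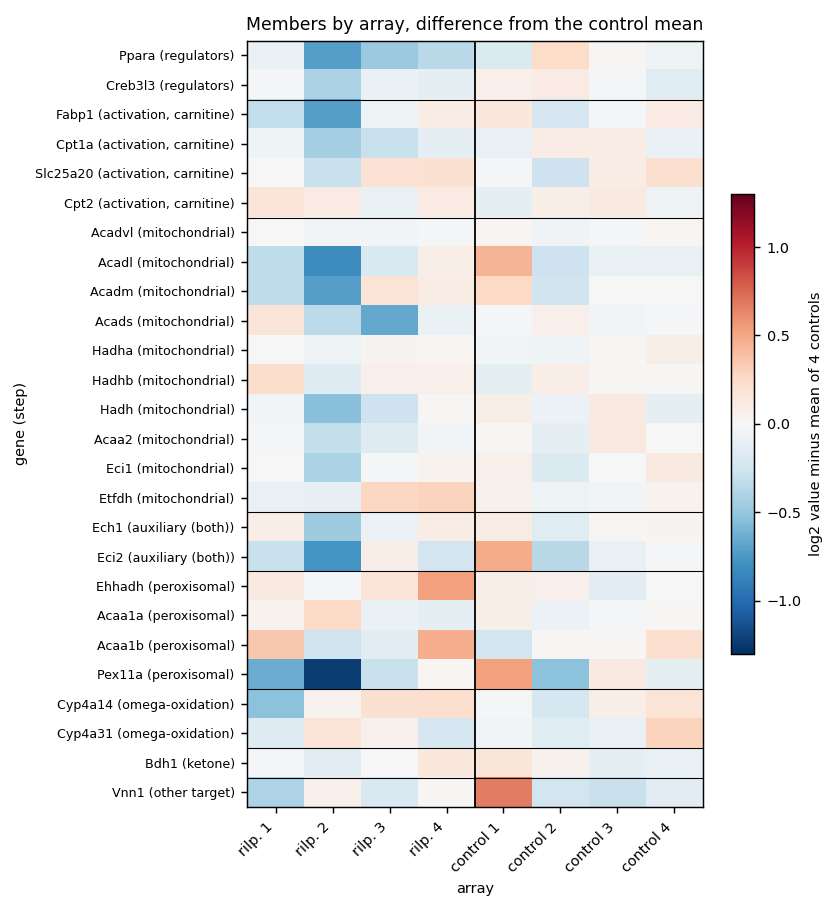
Each measured gene (rows, grouped by step) on each array (columns; rilp. stands for rilpivirine) as the log2 value minus the mean of the 4 controls, blue lower and red higher. The column of rilpivirine replicate 2 is blue in most rows, deepest for Pex11a, Acadl and Eci2, while Acadvl and Hadha are near 0 on each array.

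Across arrays, Cpt1a followed Ppara. Over the 8 arrays Pearson's r was 0.958 (exact permutation p = 7.44e-05, two-sided) and Spearman's rho 0.976 (exact permutation p = 0.000397). With Benjamini-Hochberg adjustment over the 25 genes set against Ppara these were 0.00186 and 0.00992, and Cpt1a was the only gene of the 25 under 0.05. Without rilpivirine replicate 2 and control replicate 2, the arrays farthest from the median of Ppara, r was 0.899 (exact permutation p = 0.00556, n = 6), and after subtraction of each group's mean it was 0.925, below the 0.951 of Hadhb. Each group holds 4 arrays, too few for a correlation within it. Of the other 16634 genes tested, 4 (0.024%) had an r with Ppara at or above that of Cpt1a, and these were Sec16b, Fam160b2, Sh2b3 and Cpt1a itself; the first 3 were named after their values were seen. After subtraction of the group means 43 (0.259%) were at or above Cpt1a.

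None of the other 24 genes passed that adjustment. The median r of the 25 was 0.257 and 18 were above 0, against a median of 0.113 over all genes, of which 59.9% were above 0. Without the 2 farthest arrays the median of the 25 was 0.066 and 13 were above 0. Creb3l3, Acads and Hadh had r of 0.796, 0.737 and 0.714, with adjusted permutation p of 0.228, 0.289 and 0.289 (exact). Without the 2 farthest arrays r was 0.221 for Creb3l3 and 0.796 for Acads, and after subtraction of the group means 0.705 and 0.653. Leaving out these arrays narrows the range of Ppara, so the lower r cannot show what the relation of Creb3l3 rests on. Genes widely used as PPARα targets lay on both sides of 0: r was -0.242 for Ehhadh, 0.365 for Pex11a, -0.423 for Cyp4a14 and -0.286 for Vnn1. Their adjusted exact permutation p was at least 0.667. After subtraction of the group means r was 0.264, -0.033, -0.654 and -0.659 in that order.

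**Figure D4:**
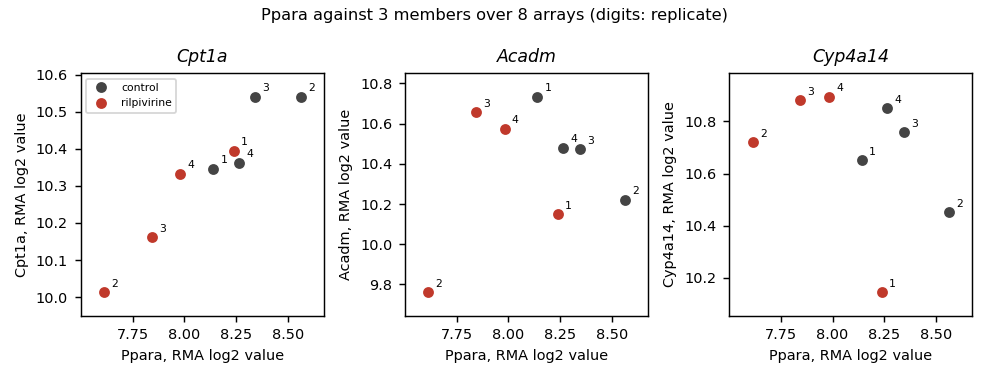
Ppara (horizontal axes, RMA log2 value) against Cpt1a, Acadm and Cyp4a14 (vertical axes, RMA log2 value) on the 8 arrays, with replicate numbers and groups in colour. Cpt1a lies close to a rising line (r = 0.958); Acadm (r = 0.228) and Cyp4a14 (r = -0.423) do not.

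The other genes of these pathways, from lists that hold no member of the set above, also had 0 adjusted calls in limma. At an unadjusted p under 0.05 in limma, 2% of all genes tested were higher and 3.21% lower. Mitochondrial oxidation and fatty acid supply had 24 genes tested and a median log2 difference of -0.06; at an unadjusted p under 0.05, 1 was higher and 1 lower. The lower was Slc22a5, the plasma membrane carnitine transporter, with 5.52 ± 0.20 log2 against 6.02 ± 0.07 (SD, n = 4 each), groups that did not overlap and an adjusted p of 0.777. The higher was Crat, carnitine acetyltransferase, with a difference of 0.39 ± 0.14 (SE), and 0.08 in a second, dimmer probe set; Acot13, a thioesterase of mitochondria, was at -0.43 ± 0.23 (SE), or -0.23 without rilpivirine replicate 2. The median of the 24 was then 0.01.

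The peroxisomal list had 27 genes tested and a median of -0.05; 2 were higher and 2 lower at that level. Acox2, the oxidase for branched chains and bile acid precursors, measured 8.39, 8.35, 8.62 and 8.54 with rilpivirine and 7.89, 8.15, 8.14 and 8.14 in controls. Every rilpivirine array lay above every control, and the difference was 0.40 ± 0.12 (SE; adjusted p = 0.813 in limma). Hacl1, of α-oxidation of branched chains, had a difference of 0.31 ± 0.12 (SE), and the peroxisomal thioesterase Acot3 one of -0.60 ± 0.22 (SE). The median of the 27 was 0.02 without rilpivirine replicate 2.

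Of 16 genes tested for ω-oxidation 1 was higher at an unadjusted p under 0.05 and 0 lower. This was Cyp4b1, with a difference of 0.47 ± 0.19 (SE). Cyp4v3 and Cyp4x1 were at -0.25 ± 0.14 and -0.27 ± 0.14 (SE), and both at -0.14 without rilpivirine replicate 2. Cyp4b1 was then at 0.41 (unadjusted p = 0.0661 in limma). Without rilpivirine replicate 4, its lowest rilpivirine array at 6.15, Cyp4b1 was at 0.66 (unadjusted p = 0.000724, adjusted p = 0.531 in limma). Of 8 tested for ketone bodies 1 was higher and 0 lower: Slc16a1, the monocarboxylate transporter that exports ketone bodies, had a difference of 0.57 ± 0.22 (SE) and was highest in rilpivirine replicate 4, at 8.40 against 7.35 to 7.48 in the other rilpivirine arrays. Without replicate 4 its difference was 0.32 (unadjusted p = 0.0425 in limma). Bdh2 was at 0.31 ± 0.17 and the mitochondrial deacetylase Sirt3 at -0.29 ± 0.17 (SE). Without rilpivirine replicate 2, Bdh2 was at 0.40 (unadjusted p = 0.0432 in limma) and Sirt3 at -0.23.

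Among 19 partners and coregulators of PPARα tested, the sign was negative in 15, or 78.9%, against 56.9% of all genes. The median log2 difference was -0.15, and 0 were higher and 1 lower at an unadjusted p under 0.05. Ppargc1b, which encodes the coactivator PGC-1β, measured 4.78 ± 0.16 against 5.22 ± 0.27 log2 (SD, n = 4 each) and its groups did not overlap. Its relative Ppargc1a was at -0.77 ± 0.35 (SE), and Ppard, a related receptor, at -0.26 ± 0.13 (SE). Without rilpivirine replicate 2 the sign was negative in 13 of the 19, or 68.4%, against 53.2% of all genes, and the median was -0.05. Ppargc1a was then at -0.50 and Ppard at -0.31 (unadjusted p = 0.0423 in limma). With the small nucleolar RNA level of each array in the model, 13 were negative and the median was -0.08.

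Of 29 further targets 1 was higher and 2 lower. Plin5, which ties lipid droplets to mitochondria in oxidative tissue, measured 6.48, 6.19, 6.80 and 6.82 with rilpivirine and 7.57, 6.70, 7.54 and 7.09 in controls, with overlap only through control replicate 2 and a difference of -0.65 ± 0.21 (SE; adjusted p = 0.849 in limma). Gpd1, the cytosolic glycerol-3-phosphate dehydrogenase, was at 0.38 ± 0.15 and Slc25a42, a mitochondrial carrier of coenzyme A, at -0.30 ± 0.13 (SE); without rilpivirine replicate 4 Slc25a42 was at -0.22 (unadjusted p = 0.107 in limma). Pdk4, Fgf21 and Plin2 had differences of 0.17 ± 0.32, 0.27 ± 0.28 and 0.42 ± 0.22 (SE), and Angptl4 and Acot1 of -0.53 ± 0.34 and -0.08 ± 0.32 (SE). Without rilpivirine replicate 4, Pdk4 was at -0.14, Fgf21 at 0.002, Plin2 at 0.21 and Acot1 at -0.03. Without rilpivirine replicate 2, Pdk4 and Fgf21 were at 0.38, and Angptl4 and Acot1 at -0.25. Plin2 was then at 0.54 (unadjusted p = 0.0352 in limma).

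Some fat genes stood out on rilpivirine replicate 4 and others did not. Ucp1, the uncoupling protein of brown fat, measured 5.57 log2 on it and 2.71 to 3.11 on the other 7 arrays, and Retn, the adipocyte hormone resistin, 5.38 against 2.96 to 3.32. Cidea, a droplet protein of brown fat that steatotic liver also makes, measured 3.86 against 2.50 to 3.14. Of 9 adipocyte markers 8 were measured, and the sum of their log2 levels ran from 25.43 to 32.62 with rilpivirine, highest in replicate 4, and from 25.36 to 26.23 in controls. Among them Plin1 was also highest on replicate 4, at 4.25. Lep, Nnat and Slc36a2, at 3.00, 4.55 and 3.16 on replicate 4, were highest on other arrays. Adipoq, the defining hormone adiponectin, lay near or under the filter value on all arrays, at 2.34 to 2.85.

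Ehhadh, Pdk4, Fgf21 and Plin2 were also highest on that array. Rilpivirine replicate 4 was the highest array in 4 of the 26 measured genes, Ehhadh among them, and in 16.6% of all genes tested. The part of the adipocyte markers in the result was not tested. Without rilpivirine replicate 4 the log2 difference of Ehhadh was 0.09 in place of 0.20, and that of Ppara was -0.43. Those of Pdk4, Fgf21 and Plin2 were then -0.14, 0.002 and 0.21. Kidney tubule markers, of the tissue that shares Cyp4a expression with liver, had summed log2 levels of 28.89 to 30.17 with rilpivirine and 28.94 to 29.53 in controls over 10 genes. 5 of these, including Kap and Cubn, were under the filter. Muscle markers summed to 39.19 to 43.37 and 39.60 to 41.71 over 11 genes. Of 7 markers of sinusoidal endothelium 6 were higher and 1 lower, 3 of the higher at an unadjusted p under 0.05 in limma. Of 9 Kupffer cell markers 1 was higher and 8 lower, 2 of the lower at that level. Of all genes tested 2% were higher and 3.21% lower at that level. Without rilpivirine replicate 2 the counts of 3 and 2 were 0 and 2. The part of these cells in the result was not tested.

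**Figure D5:**
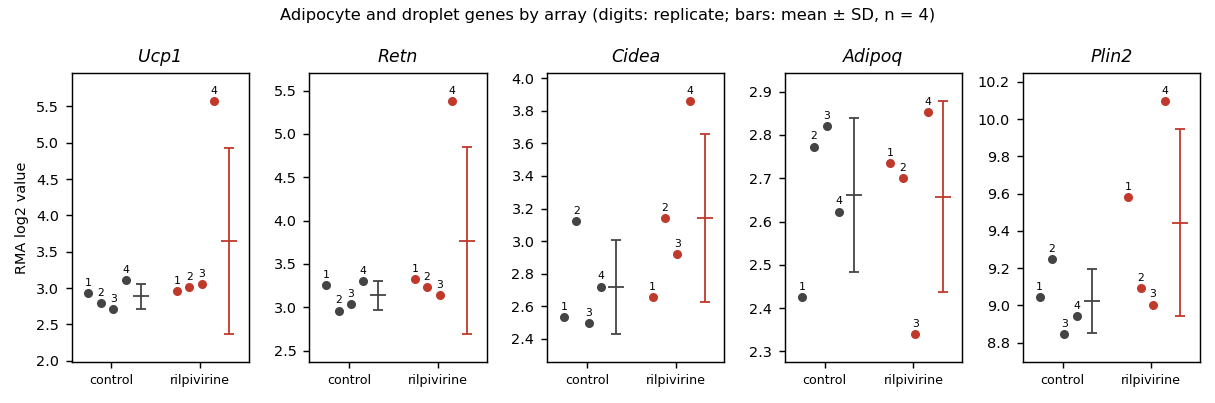
Adipocyte and lipid droplet genes on each array (vertical axes: RMA log2 value, a separate scale for each gene; points are arrays with their replicate number; bars are mean ± SD, n = 4). Rilpivirine replicate 4 is the highest array in each panel, at 5.57 for Ucp1 and 5.38 for Retn. For Adipoq it is at 2.85, against 2.82 in control replicate 3.

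Feeding and the clock set much of the daily rhythm of these genes, so their lists are given beside them. Of 11 lipogenic genes tested, which feeding raises, 0 had an unadjusted p under 0.05 in either direction and the median log2 difference was 0.26. Thrsp, a regulator of lipogenesis, was at -0.90 ± 0.44, Pklr, the liver pyruvate kinase, at 0.32 ± 0.18 and Pnpla3 at 0.65 ± 0.41 (SE). Without rilpivirine replicate 4 the median was 0.04 and Pnpla3 was at 0.40, and without rilpivirine replicate 2 Thrsp was at -0.57. Of 13 genes that fasting or glucagon raises 1 was higher and 1 lower at that level: Insig2, a regulator of sterol sensing, had a difference of 0.65 ± 0.28 and Pck1, of gluconeogenesis, one of -0.62 ± 0.24 (SE). Without rilpivirine replicate 4, where Insig2 measured 9.03, these were 0.32 and -0.48, with unadjusted p of 0.0586 and 0.0752 in limma. Without rilpivirine replicate 2 they were 0.80 and -0.51, with unadjusted p of 0.0179 and 0.0684 in limma. The median of the 13 was -0.07, and 0.13 without rilpivirine replicate 2. Among 19 clock genes the median was -0.44. At that level 3 were higher and 11 lower, against 2% and 3.21% of all genes tested. Usp2 and Wee1 were at -1.60 ± 0.35 and -1.12 ± 0.27 and Arntl at 0.69 ± 0.19 (SE), each with an adjusted p of at least 0.743 in limma. Their part in the difference of Ppara, measured between the same groups, was not tested.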

How the data were processed

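Total RNA (300 ng per sample) was measured on 1-colour Affymetrix whole-transcript arrays, 1 for each of 8 samples. The deposited log2 values of 41345 probe sets were made by the authors with RMA, which corrects background, equalizes arrays by quantiles and summarises probes, per the submitters' processing notes, whose versions, like a genome build, the sources used here do not give. RMA removes differences in total signal.

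Platform annotation gave 23521 probe sets with 1 symbol, 1814 with several and 16010 with none listed. A filter at the 25th percentile of gene means (2.72 log2) removed 5545 of 22180 genes. The main comparison was a two-sided limma model (version 3.58.1, R 4.3.3; lmFit, then eBayes) of 16635 genes on group alone, adjusted by Benjamini-Hochberg over all of them. In bulk tissue fewer cells and less RNA per cell cannot be told apart. The script was tested on simulated data. The members and lists were chosen with earlier results of these data known. All members, 3 genes with the smallest p of each list and the widely used targets measured were named. No pair of arrays was identical. Replicate numbers were not found to pair the samples (correlations of deviations -0.25, 0.46, -0.09 and 0.07). These values alone cannot exclude a pairing. Figures used matplotlib 3.10.9 in Python 3.11.15.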

Additional observations from a re-analysis of the deposited data

Results flagged for a closer look

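Among the 52 groups of 4 arrays checked, 2 held an array far from the other 3 by Dixon's criterion; chance gives about 1 in 20. Eci1, an isomerase of mitochondrial β-oxidation, was at 7.93 log2 on the array of rilpivirine replicate 2, while the other 3 of that group lay between 8.31 and 8.38. Vnn1, a pantetheinase and PPARα target, measured 8.58 log2 in control replicate 1, against 7.64 to 7.79 in the other controls.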

How the results depend on the processing

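Under 19 alternatives, 0 of the 26 genes and 0 of all genes passed an adjusted p of 0.05 or, of the 26, of 0.10; the smallest adjusted p of a member was 0.531. The count of members at an unadjusted p under 0.05, 1 in the fit as reported, was 2 with the replicate block (Ppara and Pex11a), 4 without rilpivirine replicates 1 and 2 together (Ppara, Acads, Etfdh and Ehhadh), 0 with rilpivirine replicates 2 and 4 both left out, which was added after seeing the data, and 0 to 2 with each array left out in turn. The same count over all genes, 867, ran from 578 (without control replicate 1) to 1524 (without rilpivirine replicate 4) with each array left out in turn. Of the 26 differences 12 kept their sign under every alternative, Ppara (-0.51 to -0.29), Cpt1a (-0.28 to -0.15), Pex11a (-0.72 to -0.13) and Ehhadh (0.09 to 0.35) among them, and 14, all of 0.25 or less in size, changed sign under at least 1. With small nucleolar RNA as a covariate Pex11a was at -0.14 and the median of the 26 at 0.002. Hadhb could not be fitted with the filter at the 50th percentile. Counts by sign, and the values of other pathway genes without rilpivirine replicate 2 or 4, were added after seeing the data. The replicate numbers were not found to pair the arrays. The causes were not tested.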
